A study of Mus musculus with 4 samples.

Results

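The 50 genes described here make up the upper part and the core of the Wnt pathway: Wnt ligands and the proteins that let them leave the cell, their receptors, the R-spondin axis, secreted inhibitors, and the proteins that carry the signal to the nucleus. They were listed by name as parts of the pathway, with no threshold on their values but with earlier results of these data known, and all 50 were found among the 17505 genes of the expression table. Of these, 34 had a mean of at least 1 FPKM (fragments per kilobase of transcript, scaled to the mapped fragments of each library) over the 4 libraries and are compared between genotypes. The other 16 lay under it and are given by their values. The members just above the limit were Wnt11, with a mean of 1.0 FPKM, and Fzd2, with 1.03. Those just below it were Dkk2, with 0.912, and Wnt5b, with 0.768.

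Total RNA was sequenced from intestines of C57BL/6 mice, 2 libraries of WT and 2 of Vil-CREPT-KO, all taken 3 days after 10 Gy of X-rays. In Vil-CREPT-KO mice, villin-cre removes floxed CREPT (gene name Rprd1b) from the epithelium of the gut, so that fibroblasts, muscle, vessels, nerves and immune cells keep the gene. No library of an unirradiated intestine was analysed here, so every value is of tissue after irradiation. The labels give neither the age and sex of the mice nor the segment of intestine, and they do not tie libraries to animals, so the tests speak only of the spread between these 4 libraries.

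In the canonical pathway, a Wnt protein binds a Frizzled receptor with Lrp5 or Lrp6, which stops a destruction complex of Apc, Axin, Gsk3b and casein kinase 1 from marking beta-catenin for degradation, and beta-catenin then enters the nucleus and works with TCF factors. R-spondins bind Lgr receptors and keep the ubiquitin ligases Rnf43 and Znrf3 from removing Frizzled from the cell surface. In the intestine this signal maintains the stem cells of the crypt, and its ligands come both from Paneth cells and from the stroma beneath the epithelium.

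Rprd1b itself was listed at 5.99 and 7.19 FPKM in WT and at 4.01 and 3.93 in Vil-CREPT-KO, with other cell types still present in the tissue. The libraries also differed in makeup. Summed over 7 markers of stomach mucous cells, they held 21.2 and 106 FPKM in Vil-CREPT-KO libraries and 38491 and 41978 in WT libraries, and all 7 were called lower. Summed over 7 pancreatic acinar markers, Vil-CREPT-KO 1 held 3.35 FPKM against 2524 to 9543 in the other libraries, and Vil-CREPT-KO 1 was also lowest in the sum of 6 duodenal markers, at 225 against 785 to 982. All 12 epithelial markers were detected at means of at least 23.2 FPKM, while sums over ileal and colonic markers stayed at or under 4.67 FPKM. In bulk tissue, fewer cells of a type and less RNA per cell cannot be told apart.

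No Wnt pathway member passed the test. Fitted with limma over all 11621 genes whose mean reached 1 FPKM, 0 of the 34 members were called higher or lower, where a call needed a log2 fold change beyond 1 in either direction together with a Benjamini-Hochberg adjusted p under 0.05. Over all tested genes, 0.387% were called higher and 1.69% lower, and 2.16% had an adjusted p under 0.05 at any fold. Adjusted p-values of members ran from 0.107 to 0.998. At an unadjusted p under 0.05 there were 4 members (11.8%), Wnt11, Wls, Wnt5a and Fzd4, against 20.2% of all tested genes.

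The fold changes of the members were small. Their median log2 fold change, Vil-CREPT-KO over WT on the log2(FPKM + 1) scale, was 0.04, and that of all tested genes was 0.06. It lay within 0.5 of no change in 30 of the 34 members (88.2%) and in 79.5% of tested genes. Both Vil-CREPT-KO values were above both WT values in 7 members (20.6%), with 31.9% of all tested genes doing so, and below both in another 7 (20.6%), with 22.1% of all tested genes. In the other 20 members the groups overlapped. The members that lay below WT in both Vil-CREPT-KO libraries were Wnt4, Wnt11, Wls, Fzd4, Fzd6, Rspo1 and Rnf43, and those that lay above were Wnt5a, Apc, Csnk1a1, Dvl1, Dvl2, Ctnnb1 and Tcf7l2.

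**Figure D1:**
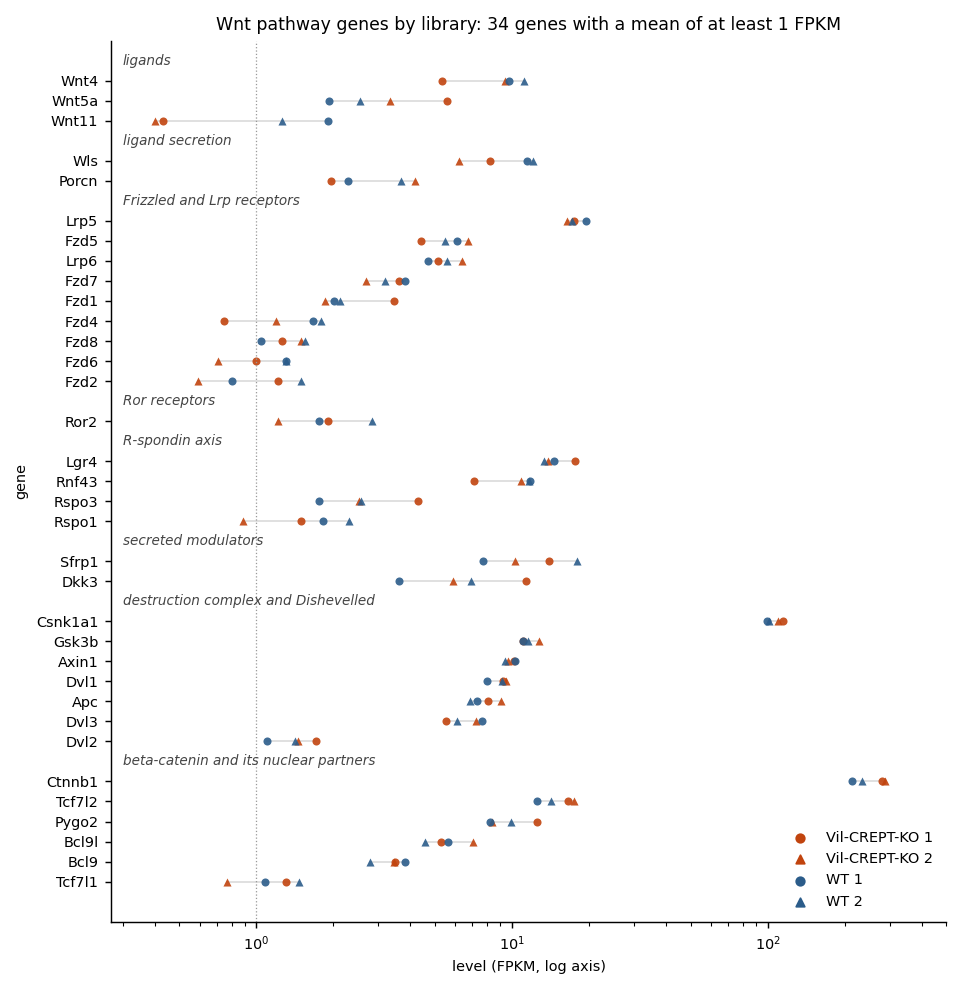
Level of each of the 34 members in each library, in FPKM on a log axis, grouped by role and ordered by mean level within a role. Circles are replicate 1, triangles replicate 2, orange Vil-CREPT-KO and blue WT; the dotted line marks 1 FPKM. Ctnnb1 and Csnk1a1 stand far above the other members, and the colours separate in 14 of the 34 rows.

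Wnt ligands are secreted, lipid-bearing proteins, and 3 of the 10 ligands were high enough to test. Wnt4, which is made by stromal and epithelial cells in several organs, was the most abundant in 3 of the 4 libraries. It measured 5.32 and 9.37 FPKM in Vil-CREPT-KO libraries and 9.69 and 11.1 in WT libraries. Both Vil-CREPT-KO values lay below WT, but the second came close to the lower WT value, and the log2 fold change of -0.49 (SE 0.265) had an adjusted p of 0.366.

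Wnt5a, a ligand of the noncanonical branches that is made by stromal cells of the gut, was ordered the other way. It measured 5.55 and 3.32 FPKM in Vil-CREPT-KO libraries and 1.93 and 2.54 in WT libraries, means of 4.44 ± 1.58 and 2.24 ± 0.431 (SD, n = 2). The groups did not overlap, and the log2 fold change of 0.72 (SE 0.248, adjusted p = 0.207) was the largest positive one among the tested members. Without Vil-CREPT-KO replicate 2 it was 1.02 with an adjusted p of 0.036 and was called higher. That fit takes its spread from the WT libraries and the other genes, assuming that the lone Vil-CREPT-KO library varies like them, and over all genes it called 408 higher and 492 lower in place of 45 and 196. Of the 14 fibroblast and telocyte markers, 5 lay in the same order as Wnt5a, 8 overlapped between the genotypes and Dpt lay lower in both Vil-CREPT-KO libraries. Among the 11 of them that were tested, 4 lay in that order (36.4%), close to the 31.9% of all tested genes. Pdgfra, 1 of the 5, measured 13.1 and 9.64 FPKM in Vil-CREPT-KO libraries and 4.27 and 6.14 in WT libraries. Foxl1, a marker of the telocytes beneath the epithelium, was the untested 1 of the 5, at 1.05 and 1.12 against 0.30 and 0.50. Over all 14 markers of these cells, the summed level ran from 239.8 to 459.7 FPKM in Vil-CREPT-KO and from 177 to 299.6 in WT, and none was at 0. Their part in the Wnt5a result was not tested.

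With Wnt4 ordered down and Wnt5a up, the ratio of the 2 had to divide the genotypes and only restates those orders. The sum of the ligands overlapped between the genotypes. The 10 ligands summed to 14.9 and 16.1 FPKM in Vil-CREPT-KO and to 15.3 and 17.8 in WT. Wnt4 took 63.3% and 62.4% of that sum in WT and 35.7% and 58.2% in Vil-CREPT-KO, the last of these close to WT. The ratio of Wnt4 to Wnt5a was 5.02 and 4.37 in WT and 0.959 and 2.82 in Vil-CREPT-KO, so that only in Vil-CREPT-KO 1 did the Wnt5a level exceed that of Wnt4. No test was run on these shares and ratios, for which an exact permutation test of 2 libraries against 2 cannot give a two-sided p below 0.333.

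Wnt11, also known for noncanonical signalling in cell movement, had the largest log2 fold change of all tested members in either direction. It measured 0.43 and 0.40 FPKM in Vil-CREPT-KO libraries and 1.91 and 1.26 in WT libraries, means of 0.415 ± 0.021 and 1.59 ± 0.460 (SD, n = 2), a 3.82-fold lower mean in Vil-CREPT-KO. The 2 groups stood well apart, yet these are low levels. At the depth estimated for these libraries, they correspond to roughly 26 and 24 fragments against 116 and 74, if all fell on the longest coding transcript. The log2 fold change was -0.86 (SE 0.190), and the adjusted p of 0.107 was the smallest among tested members. With a mean of 1.0 FPKM over the 4 libraries, Wnt11 reached the limit for testing only through its WT values. A gene this low in Vil-CREPT-KO could be tested only by being higher in WT. Its rank among tested members is therefore partly set by the filter. The stomach mucous markers, near 0 in Vil-CREPT-KO as given above, divided the libraries in the same way as Wnt11. Their part in the Wnt11 result was not tested.

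Wnt11 lies on the plus strand at chr7:98835084-98854747 (RefSeq, GRCm38.p6). Its promoter is shown because it is the tested member with the largest fold change and it holds a match to the letters bound by TCF factors, the partners of beta-catenin. CTTTGAA and CTTTGAT were searched on both strands, from 250 bases before to 50 bases after an annotated start. Of the 50 members, 33 had such a window, and a match was found in 2 of them (6.06%), Wnt11 and Wnt5b. The share was 6.15% among 65 other Wnt pathway genes, 7.23% among tested genes and 9.88% over the 27025 genes of the promoter table, so the share among members lay below that of all genes. Both stretches are printed 5′ to 3′ on the strand of the gene with the match in capitals, Wnt11 from chr7:98835031-98835097 with the match 51 to 45 bases before the start used in the promoter table and read on the opposite strand, and Wnt5b from the minus strand of chr6:119449421-119449487 with the match 71 to 65 bases before the start.
Wnt11: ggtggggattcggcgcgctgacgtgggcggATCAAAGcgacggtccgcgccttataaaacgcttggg
Wnt5b: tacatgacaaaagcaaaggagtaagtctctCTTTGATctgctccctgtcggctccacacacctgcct
The 2 genes with a match were not ordered alike, since Wnt5b measured 0.86 and 0.89 FPKM in Vil-CREPT-KO libraries and 0.41 and 0.91 in WT libraries, and its groups overlapped. A match is a run of letters only and was not measured as a site.

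The other 7 ligands, Wnt5b among them, had means from 0.028 to 0.768 FPKM. Wnt3, a ligand that Paneth cells supply to stem cells, measured 0.98 and 0.45 FPKM in Vil-CREPT-KO libraries and 0.19 and 0.34 in WT libraries. Its groups did not overlap, but the highest value stands for roughly 54 fragments and the lowest for 10. All 6 Paneth cell markers were higher in both Vil-CREPT-KO libraries (100%, with 31.9% over all tested genes). These markers summed to 14389 and 5613 FPKM against 2471 and 2517 in WT, and none was called. The part of Paneth cells in the Wnt3 values was not tested. Wnt9a measured 0.64 and 0.57 FPKM in Vil-CREPT-KO libraries and 0.36 and 0.46 in WT libraries and was the other ligand under the limit whose groups did not overlap. Wnt2b, a stromal ligand that acts alongside Wnt3, lay between 0.61 and 0.81 FPKM in all 4 libraries, and Wnt2, Wnt6 and Wnt9b stayed at or under 0.27.

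**Figure D2:**
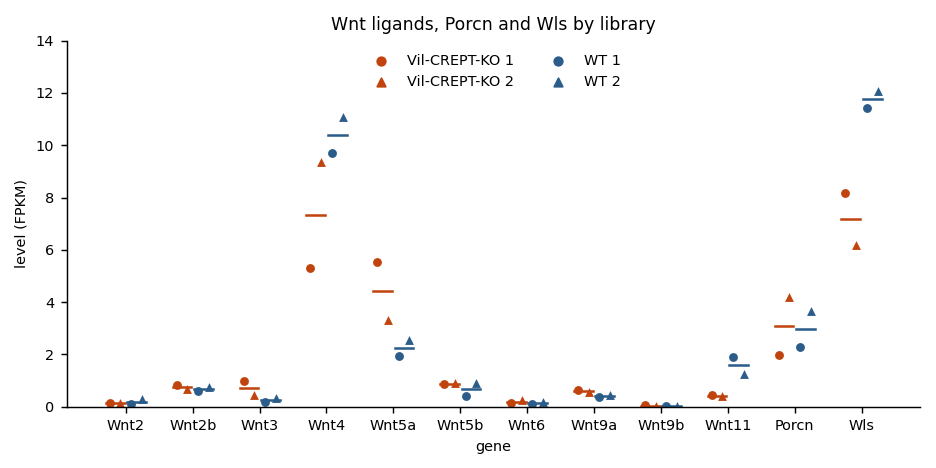
Level in FPKM of the 10 Wnt ligands and of the secretion proteins Porcn and Wls in each library, with circles for replicate 1, triangles for replicate 2 and bars for the mean of 2 libraries. Wnt4, Wnt11 and Wls lie lower in Vil-CREPT-KO and Wnt5a higher, and 7 ligands lie under 1 FPKM in every library.

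Wnt proteins need Porcn, which attaches their lipid, and Wls, which carries them to the cell surface. Wls measured 8.18 and 6.19 FPKM in Vil-CREPT-KO libraries and 11.4 and 12.1 in WT libraries, means of 7.19 ± 1.41 and 11.8 ± 0.460 (SD, n = 2). Each Vil-CREPT-KO value lay below each WT value by more than the WT libraries differed from each other. The log2 fold change was -0.65 (SE 0.172), with an adjusted p of 0.138. Porcn, in contrast, measured 1.96 and 4.19 FPKM in Vil-CREPT-KO libraries and 2.28 and 3.67 in WT libraries, with replicate 2 above replicate 1 in both groups and a log2 fold change of 0.0021 (SE 0.331, adjusted p = 0.998).

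Among receptors, the co-receptor Lrp5 was the most abundant. It measured 17.4 and 16.4 FPKM in Vil-CREPT-KO libraries and 19.6 and 17.2 in WT libraries, with overlapping groups and a log2 fold change of -0.11 (SE 0.142, adjusted p = 0.692). Lrp6, which can stand in for it, ran from 4.70 to 6.37 FPKM with overlap as well. For both co-receptors the spread of the libraries exceeded the distance between the genotypes.

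The 8 Frizzled receptors summed to 15.8 and 15.3 FPKM in Vil-CREPT-KO and to 17.1 and 17.4 in WT. Fzd5, the Frizzled of highest level here and one used by Paneth cells to mature, made up 35.6% and 31.3% of the sum in WT and 27.8% and 43.7% in Vil-CREPT-KO, and its own groups overlapped. Fzd7, which is known from intestinal stem cells, ran from 2.69 to 3.82 FPKM, Fzd1 from 1.85 to 3.44, Fzd8 from 1.04 to 1.55 and Fzd2 from 0.59 to 1.49, all with overlapping groups and absolute log2 fold changes of at most 0.21.

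Of the 9 tested Frizzled and Lrp receptors, 2 lay lower in both Vil-CREPT-KO libraries (22.2%), close to the 22.1% of all tested genes. These were Fzd4 and Fzd6, with Vil-CREPT-KO means of 0.97 and 0.855 FPKM, and both reached the limit through their WT values. The untested Fzd3 also lay lower in both. Fzd4, which also binds the ligand norrin in vessels, measured 0.75 and 1.19 FPKM in Vil-CREPT-KO libraries and 1.67 and 1.79 in WT libraries, with a log2 fold change of -0.48 (SE 0.180, adjusted p = 0.234). Fzd6 measured 1.0 and 0.71 FPKM in Vil-CREPT-KO libraries and 1.31 and 1.30 in WT libraries (adjusted p = 0.350). Fzd3, which with Fzd6 acts in planar cell polarity, lay under the limit and was not tested, at 0.14 and 0.12 FPKM in Vil-CREPT-KO libraries and 0.36 and 0.51 in WT libraries. In fragments that is roughly 32 and 27 against 81 and 110, on a long transcript. All 6 endothelial markers lay higher in both Vil-CREPT-KO libraries (100%, with 31.9% over all tested genes), and Tie1 was called higher. These markers summed to 48.7 and 31.5 FPKM against 13.4 and 23.4 in WT. Their part in the Fzd4 value was not tested.

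Ror2, a receptor tyrosine kinase for Wnt5a, measured 1.90 and 1.21 FPKM in Vil-CREPT-KO libraries and 1.75 and 2.84 in WT libraries. The groups overlapped, and the log2 fold change was -0.36 (SE 0.242, adjusted p = 0.453). Ror1, its relative, ran from 0.38 to 0.67 FPKM, again with overlap, so neither receptor was ordered with its ligand.

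In the R-spondin axis, the 2 detected ligands were ordered differently. Rspo1 measured 1.5 and 0.89 FPKM in Vil-CREPT-KO libraries and 1.83 and 2.3 in WT libraries, below WT in both libraries, with a log2 fold change of -0.49 (SE 0.205, adjusted p = 0.269). Rspo3, an R-spondin made by stromal cells next to the crypt, measured 4.29 and 2.52 FPKM in Vil-CREPT-KO libraries and 1.75 and 2.56 in WT libraries. Only Vil-CREPT-KO 1 was high, the groups overlapped, and the log2 fold change was 0.46 (SE 0.259, adjusted p = 0.378). Rspo2 was at 0.08 to 0.34 FPKM, and all R-spondins here summed to 5.90 and 3.49 FPKM in Vil-CREPT-KO libraries and 3.66 and 5.20 in WT libraries.

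The receptor Lgr4 was the most abundant member of the axis, at 17.6 and 13.8 FPKM in Vil-CREPT-KO libraries and 14.6 and 13.4 in WT libraries, with a log2 fold change of 0.15 (SE 0.169, adjusted p = 0.661). Lgr6 was listed between 0.00 and 0.03 FPKM. Rnf43, itself a target of the pathway and an inhibitor of it, measured 7.10 and 10.9 FPKM in Vil-CREPT-KO libraries and 11.8 and 11.6 in WT libraries. Nearly all of its distance came from Vil-CREPT-KO 1, and the log2 fold change was -0.37 (SE 0.216, adjusted p = 0.388). Its relative Znrf3, under the limit and not tested, measured 0.67 and 0.58 FPKM in Vil-CREPT-KO libraries and 0.86 and 0.82 in WT libraries, so both ligases had the same order. Of 5 tested markers of crypt base columnar cells, the stem cells that use this axis, Olfm4 and Slc12a2 were called lower, Ascl2 lay lower in both Vil-CREPT-KO libraries, Smoc2 overlapped and Axin2 lay higher in both. The part of these cells in the Rnf43 and Znrf3 values was not tested.

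RT-PCR primers used in the study for Fzd3, Fzd4 and Rspo1 are shown because they fix which part of each transcript was read. Each primer matched its own gene only, in the GENCODE vM21 transcripts of mm10, and all lie in coding sequence. The Fzd3 pair spans 109 bases within exon 2 of 7 (minus strand, chr14:65253024-65253132), the Fzd4 pair 101 bases within exon 1 of 2 (chr7:89404843-89404943), and the Rspo1 pair 147 bases of transcript from exon 2 to exon 3 of 6 (chr4:124991399-125005100).
Fzd3 forward: atggctgtgagctggattgtc
Fzd3 reverse: ggcacatcctcaaggttataggt
Fzd4 forward: tgccagaacctcggctaca
Fzd4 reverse: atgagcggcgtgaaagttgt
Rspo1 forward: gggatcaagggcaagagacag
Rspo1 reverse: ctggcggatgtcgttcctc
Only the Rspo1 pair crosses an intron. All 3 genes lay lower in both Vil-CREPT-KO libraries in the sequencing data, at the values given above, as did 22.1% of all tested genes. Fzd3 was under the limit and not tested, and Fzd4 reached the limit through its WT values. Neither Fzd4 nor Rspo1 was called.

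**Figure D3:**
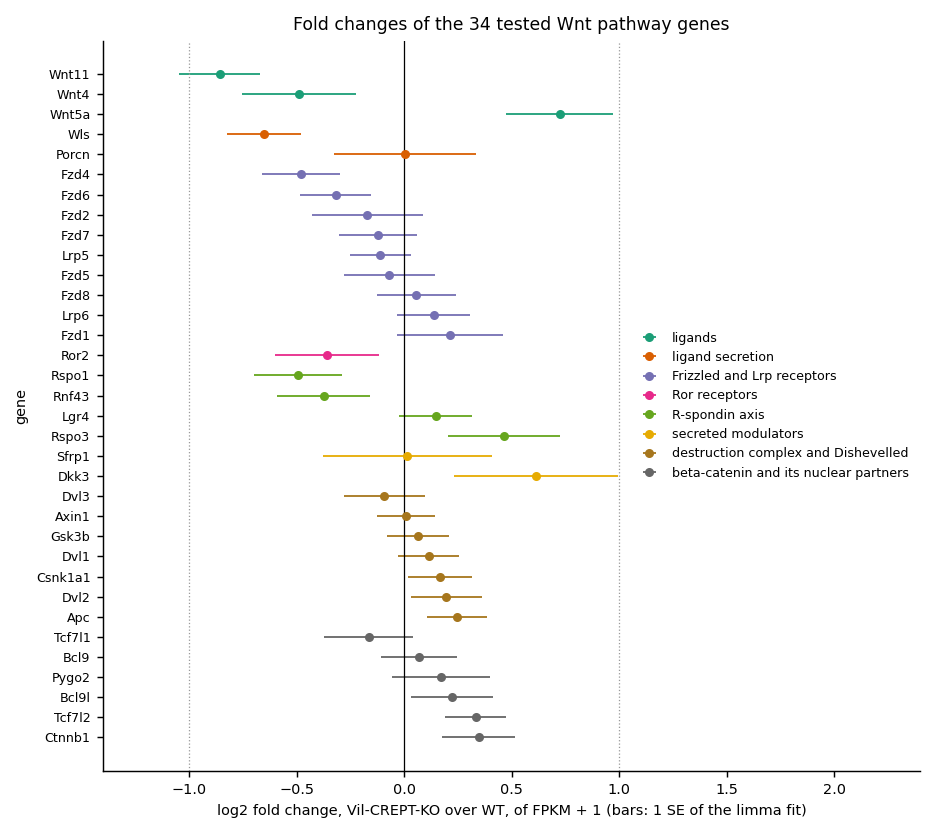
Log2 fold change of each tested member, Vil-CREPT-KO over WT on the log2(FPKM + 1) scale, coloured by role, with bars of 1 SE from limma and dotted lines at the fold threshold. None of the 34 points reaches a dotted line, and Wnt11 (-0.86), Wnt5a (0.72) and Wls (-0.65) lie furthest from 0.

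The secreted modulators bind Wnt proteins (Sfrp1, Sfrp2, Sfrp5, Wif1) or act at Lrp co-receptors (Dkk2), while Dkk3 is a divergent member of its family. Sfrp1 was the most abundant, at 13.9 and 10.3 FPKM in Vil-CREPT-KO libraries and 7.71 and 17.9 in WT libraries. Its WT libraries bracketed both Vil-CREPT-KO libraries, and the log2 fold change was 0.015 (SE 0.394, adjusted p = 0.987). Dkk3 measured 11.3 and 5.90 FPKM in Vil-CREPT-KO libraries and 3.6 and 6.88 in WT libraries, with overlap and a log2 fold change of 0.61 (SE 0.381, adjusted p = 0.419).

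An order that mixes the genotypes was seen in several of these genes. In 4 of the 6 modulators, Sfrp1, Dkk3, Dkk2 and Sfrp5, Vil-CREPT-KO 1 and WT 2 were both higher than Vil-CREPT-KO 2 and WT 1. Dkk2 measured 1.86 and 0.56 FPKM in Vil-CREPT-KO libraries and 0.28 and 0.95 in WT libraries, and Sfrp5 0.72 and 0.33 against 0.23 and 0.90. The same order was seen in 8 of the 34 tested members, a share close to the 21.8% of all tested genes. It was also seen in 4 of 8 smooth muscle markers and 7 of 14 fibroblast and telocyte markers. Smooth muscle markers summed to 956 and 620 FPKM in Vil-CREPT-KO libraries and 692 and 1061 in WT libraries, with none at 0. Sfrp2 (0.08 to 0.16 FPKM) and Wif1 (0.22 to 0.51) stayed low everywhere. The part of muscle and stroma in these levels was not tested.

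**Figure D4:**
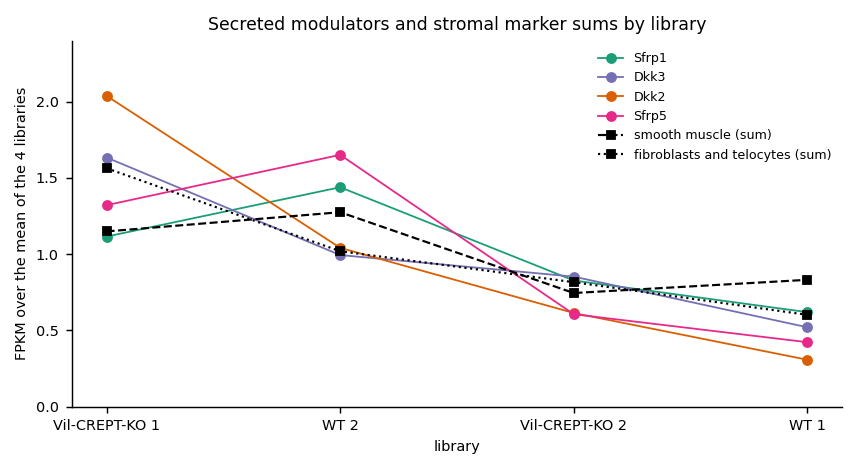
Level of 4 secreted modulators and summed level of smooth muscle and of fibroblast and telocyte markers in each library, each divided by its mean over the 4 libraries, with libraries ordered to put Vil-CREPT-KO 1 and WT 2 first. Every line is higher in those 2 libraries than in Vil-CREPT-KO 2 and WT 1, which mixes the genotypes. The 4 modulators were picked for having this order, and Sfrp2 and Wif1 are not drawn.

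Within the cell, the destruction complex and Dishevelled proteins were close between genotypes. Csnk1a1, the casein kinase that primes beta-catenin for degradation, was the most abundant, at 115 and 110.0 FPKM in Vil-CREPT-KO libraries and 99.0 and 101 in WT libraries. The groups did not overlap, though the log2 fold change was only 0.17 (SE 0.148, adjusted p = 0.567). The scaffold Apc measured 8.07 and 9.07 FPKM in Vil-CREPT-KO libraries and 7.31 and 6.83 in WT libraries, with a log2 fold change of 0.24 (adjusted p = 0.388). Axin1 ran from 9.40 to 10.3 FPKM and the kinase Gsk3b from 11.03 to 12.8, each with overlap. Of the 3 Dishevelled proteins, which relay the signal from Frizzled, Dvl1 (7.96 to 9.49 FPKM) and Dvl2 (1.10 to 1.71) lay higher in both Vil-CREPT-KO libraries and Dvl3 (5.53 to 7.63) overlapped. The 4 of 7 genes of this role that lay higher (57.1%, with 31.9% over all tested genes) had log2 fold changes of 0.24 or less. After the rescaling without stomach and pancreatic genes described further on, that of Csnk1a1 was 0.05, that of Apc 0.14, that of Dvl1 0.01 and that of Dvl2 0.13.

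Ctnnb1, which encodes beta-catenin, had the highest level of all members. It measured 281 and 288 FPKM in Vil-CREPT-KO libraries and 214 and 233 in WT libraries, means of 284 ± 5.05 and 224 ± 13.3 (SD, n = 2), a 1.27-fold higher mean in Vil-CREPT-KO. The groups did not overlap, but the log2 fold change of 0.35 (SE 0.171) had an adjusted p of 0.331. Tcf7l2, the main TCF factor of the intestinal epithelium, had nearly the same ratio, at 16.6 and 17.5 FPKM in Vil-CREPT-KO libraries and 12.5 and 14.2 in WT libraries (log2 fold change 0.33, SE 0.141, adjusted p = 0.274). After the same rescaling the log2 fold changes of Ctnnb1 and Tcf7l2 were 0.23 and 0.22. Of 12 epithelial markers, 10 were higher in both Vil-CREPT-KO libraries (83.3%, with 31.9% over all tested genes). All 12 summed to 13062 and 10327 FPKM against 8504 and 8596 in WT. Cldn7 overlapped, and Vil1 lay lower in both Vil-CREPT-KO libraries, at 338 and 367 FPKM against 501 and 454 in WT. The part of epithelial cells in the Ctnnb1 and Tcf7l2 values was not tested. These are transcript levels, which do not show where the protein is in the cell.

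The other nuclear partners overlapped between genotypes. Bcl9 ran from 2.77 to 3.83 FPKM and its relative Bcl9l from 4.58 to 7.03, both of which tie beta-catenin to Pygo proteins. Pygo2 measured 12.6 and 8.35 FPKM in Vil-CREPT-KO libraries and 8.17 and 9.91 in WT libraries, with Vil-CREPT-KO 1 alone standing high. The repressive factor Tcf7l1 ran from 0.77 to 1.47 FPKM and was the only one of the 6 with a negative log2 fold change.

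By role, the median log2 fold change was -0.49 for the 3 tested ligands, -0.32 for the 2 secretion proteins, -0.11 for the 9 Frizzled and Lrp receptors and -0.11 for the 4 genes of the R-spondin axis. It was 0.31 for the 2 secreted modulators, 0.12 for the 7 genes of the destruction complex and Dishevelled and 0.20 for the 6 genes of beta-catenin and its partners. Stomach and pancreatic marker genes held 8.49% and 7.75% of all FPKM in the WT libraries and 0.0042% and 0.855% in Vil-CREPT-KO. When each library was rescaled without those genes, an alternative chosen after the data were seen, the median of all genes shifted from 0.06 to -0.04 and that of the members from 0.04 to -0.06. Fold changes of both signs are to be read against that shift. From the main fit to the rescaled one, Wnt11 went from -0.86 to -0.93 and Wls from -0.65 to -0.76. Wnt4 went from -0.49 to -0.60 and Wnt5a from 0.72 to 0.64. The part of the stomach and pancreatic genes in the fold changes of members was not tested.

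Members also differed more between the 2 Vil-CREPT-KO libraries than between the 2 WT libraries. Each genotype gives only a single such difference, so it does not measure how much a genotype varies. The Vil-CREPT-KO libraries also differed from each other in pancreatic and duodenal markers, as given above. The part of that makeup in these differences was not tested. The median absolute log2 difference between the 2 libraries of a group was 0.33 in Vil-CREPT-KO and 0.20 in WT over the 34 members, and 0.20 and 0.19 over all tested genes. The difference was wider in Vil-CREPT-KO for 23 of 34 members (67.6%) and for 51.6% of tested genes. It was widest for Dkk3, at 0.84, and Porcn, at 0.81, in Vil-CREPT-KO, and for Sfrp1, at 1.12, in WT.

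A further 83 genes of the pathway were in the table, among them more inhibitors, kinases, co-repressors and targets, and 49 were tested. None was called by limma, and 6 of the 49 had an unadjusted p under 0.05, with 20.2% of all tested genes doing so. The median log2 fold change of the 49 was 0.17, and that of all tested genes was 0.06. It was above 0 in 37 of them and below in 12, with 57.4% of all tested genes above 0. Both Vil-CREPT-KO values lay higher in 25 of the 49 (51.0%, with 31.9% over all tested genes) and lower in 5 (10.2%, with 22.1%). Among the 49 tested genes, the largest log2 fold changes without overlap were those of Dkkl1, Frzb and Gpc4. Dkkl1, a relative of Dkk3, measured 0.81 and 0.70 FPKM in Vil-CREPT-KO against 2.93 and 1.55 in WT (log2 fold change -0.85, adjusted p = 0.159). The secreted Wnt-binding protein Frzb measured 2.25 and 1.65 against 0.39 and 0.93 (0.84, adjusted p = 0.147). The glypican Gpc4 measured 31.4 and 29.5 against 21.8 and 19.2 (0.55, adjusted p = 0.137). Dkkl1, with a Vil-CREPT-KO mean of 0.755 FPKM, reached the limit for testing only through its WT values. Frzb, with a WT mean of 0.66 FPKM, reached it only through its Vil-CREPT-KO values. The rank of Dkkl1 and Frzb among the 49 is therefore partly set by the filter. The pathway target Axin2 measured 6.75 and 4.27 FPKM in Vil-CREPT-KO libraries and 4.22 and 3.88 in WT libraries, and the stem cell receptor Lgr5 was under the limit, at 0.33 and 0.35 against 0.54 and 0.48. These 2 were picked as familiar targets, not by the size of their difference.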

How the data were processed

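The authors deposited 1 table of FPKM values, 1 column per library. Per the study's methods, reads were aligned with Bowtie2 to transcripts of GRCm38.p6 and quantified with RSEM, which splits ambiguous reads between related genes by likelihood. The submitters' processing notes name these tools with HISAT and mm10, with no version. FPKM is relative to all mapped fragments, so abundant transcripts present in some libraries only lower every other value there.

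Groups came from the sample labels. NCBI gene IDs were matched to symbols for 17473 of 17505 genes with the RefSeq gene table of GRCm38.p6. Values were tested as log2(FPKM + 1) with limma 3.58.1 in R 4.3.3 (variance trend, two-sided, Benjamini-Hochberg adjustment over the 11621 genes whose mean reached 1 FPKM; 5884 lay under it), with no block. Residual degrees of freedom were 2 and prior degrees of freedom 3.08. The code was tested on simulated data. Errors on means are SDs. The members, lists and tests were chosen with earlier results of these data known. The rule for full values and fit named the highest member of each role and members without overlap whose absolute log2 fold change passed 0.5. Fit values for other members, such as Fzd4, Rspo1 and Tcf7l2, and the values of Axin2 and Lgr5 were added after they were seen.

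Steps between low FPKM values put depth near 17800000, 17400000, 17600000 and 17000000 fragments, in the order Vil-CREPT-KO 1 and 2, WT 1 and 2. Between 55.9% and 61.1% of low values came within 0.1 of whole reads, so counts were not recovered, fragment numbers are rough and no counting interval is given. Promoter windows are from RefSeq (GRCm38.p6) and primers from the study's supplementary table. Wnt10b and Sost were not analysed here. Alternatives left out each library, blocked on replicate numbers, changed the pseudocount (0.1 or 5) or the filter (none, or 5 FPKM), scaled by quantiles, by medians or without stomach and pancreatic markers, moderated variances robustly or with no trend, and called on adjusted p only.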

Additional observations from a re-analysis of the deposited data

How the results depend on the processing

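With only 2 libraries per genotype, many small fold changes turned when 1 library was left out, and levels near 1 FPKM rest on few fragments. The absence of calls among members does not show that their levels were equal. The makeup of the libraries differed along with the genotype, and the 2 cannot be told apart. Of 34 tested members, 20 kept the sign of their log2 fold change under each of the 16 alternatives that gave it a value. Alternatives that changed only the filter, the moderation of variances, the rule for calls or the block left every log2 fold change as it was. No sign could turn in those, so only the other alternatives bear on the signs. No member was called under any alternative that kept every library. Leaving out each library in turn gave 0 to 1 members called higher and 0 to 1 other Wnt pathway genes called, 0 to 408 genes called higher and 4 to 492 called lower over all genes, where the full data gave 45 and 196.

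The count over all genes was 21 higher and 120 lower with a pseudocount of 5 and 5 higher and 73 lower with no filter on low values. With the replicate block it was 14 and 108, with 0 members called. Same-numbered libraries deviated with a correlation of -0.264 across genes. With 1 difference per genotype, this gives no sign of a pairing by number but cannot exclude it. Crossing the numbers, which was chosen after the data were seen, gave 92 higher and 254 lower. The share of higher calls, 18.7% in the main setting, was 6.41% with no filter, 11.5% with the replicate block, 12.7% after the rescaling described above and 26.6% with crossed numbers, and from 0% to 45.3% when 1 library was left out. In the other settings it ran from 14.9% to 20.7%. The cause of these shifts was not tested.

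Signs that turned belonged to log2 fold changes of at most 0.21 in size. Porcn was -0.011 with a pseudocount of 0.1, -0.0038 after quantile normalization, -0.0098 after centring on the median and -0.084 after rescaling. Sfrp1 was -0.0057 with a pseudocount of 5, -0.0014 after quantile normalization and -0.091 after rescaling. Axin1 was -0.0025 after centring and -0.096 after rescaling, and rescaling also turned Gsk3b (-0.044), Fzd8 (-0.0088) and Bcl9 (-0.023). Leaving out each library in turn, the log2 fold change ran from -0.26 to 0.077 for Dvl3, -0.049 to 0.067 for Axin1, -0.32 to 0.19 for Fzd5, -0.019 to 0.31 for Lgr4, -0.54 to 0.57 for Sfrp1, -0.097 to 0.44 for Pygo2, -0.11 to 0.53 for Fzd1, -0.41 to 0.068 for Fzd2, -0.034 to 0.16 for Gsk3b, -0.10 to 0.22 for Fzd8, -0.28 to 0.042 for Fzd7, -0.36 to 0.027 for Tcf7l1, -0.40 to 0.41 for Porcn and -0.11 to 0.25 for Bcl9. Over all alternatives, Wnt11 ran from -1.68 to -0.28 with adjusted p from 0.078 to 0.447, Wls from -0.83 to -0.46 (0.0913 to 0.477) and Wnt5a from 0.37 to 1.02 (0.036 to 0.596).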
